A study of Mus musculus with 6 samples.

Results

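The fibroblast growth factor (FGF) receptors and a set of FGF ligand genes were examined in the ureteric epithelium of the embryonic mouse kidney. The 10 genes, chosen by symbol, were the receptor genes Fgfr1, Fgfr2, Fgfr3, Fgfr4 and Fgfrl1 and the ligand genes Fgf9, Fgf1, Fgf7, Fgf8 and Fgf20. All 10 were among the 21456 gene symbols with values. Messenger RNA was sequenced from CFW mice at E16.5 (embryonic day) in 2 groups of 3 libraries. Tip cells were positive for a red Wnt11 reporter and a green Hoxb7 reporter, and stalk cells were positive for the green Hoxb7 reporter and negative for the red Wnt11 reporter, so both groups carried the Hoxb7 label. Hoxb7 marks the whole ureteric epithelium and Wnt11 its growing tips, and stalk cells were thus defined by the absence of the tip reporter. No label says that the libraries are of different animals or litters, so the p-values below reflect the spread among these samples, possibly a technical one. Values are RPKM (reads scaled by transcript length and library size) as deposited by the authors, summed over the rows of each symbol. The sequencing depth behind them was unknown.

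FGF ligands bind receptor tyrosine kinases at the cell surface together with heparan sulfate. The activated receptor signals through adaptor proteins to the RAS and ERK cascade, which turns on ETS transcription factors and the Sprouty and Dusp feedback inhibitors. In the mouse kidney, FGFR2 in the ureteric epithelium is needed for normal branching, while FGF9 and FGF20 keep nephron progenitors in place and FGF8 is needed for nephron formation. FGFRL1 has an extracellular part like that of the other receptors but lacks the tyrosine kinase domain, and mice without it fail to form proper kidneys.

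The sort was reflected in Wnt11, at 423 to 930 RPKM in tip, against 1.92 to 24.5 RPKM in stalk, and in the GDNF receptor gene Ret, at 112 to 176 RPKM in tip, against 2.34 to 12.0 RPKM in stalk. The epithelial genes Epcam, Cdh1 and Cdh16, which nephron epithelium also expresses, were above 100 RPKM in all 6 libraries, and Gata3, a transcription factor gene of the ureteric lineage, was at 31.9 to 46.9 RPKM in tip, against 67.8 to 103 RPKM in stalk. The 10 ureteric epithelium markers, these among them, went both ways, with 3 called higher in tip by limma, 4 higher in stalk and 3 not called. Epcam was called higher in tip, and Cdh1, Cdh16 and Gata3 higher in stalk. Tip replicate 2 had the lowest Wnt11 and Ret of the tip libraries, and stalk replicate 1 the lowest of the stalk libraries. Each of the 7 members tested was therefore also compared without this pair, and all 7 kept their direction and their call. Stalk libraries held more endothelial marker RNA, with the summed level of the 10 markers at 8.26 to 11.7 RPKM in tip, against 53.0 to 91.0 RPKM in stalk, and 9 of 9 tested markers higher in stalk, 7 of which entered the test through their stalk level alone. The 12 stromal markers summed to 5.54 to 10.7 RPKM in tip, against 5.72 to 10.3 RPKM in stalk, with 0 of 4 tested called by limma and the defining stromal gene Foxd1 under 1 RPKM throughout. The 10 nephron progenitor markers summed to 5.05 to 7.38 RPKM in tip, against 2.86 to 4.86 RPKM in stalk, and Six2 was under 1 RPKM in every library. The 2 of these that were tested, Cited1 and Crym, entered the test through their tip level alone. Others at lower levels had higher values in stalk, with means of 0.0455 RPKM in tip, against 0.535 RPKM in stalk for Osr1, and of 0.0111 RPKM in tip, against 0.881 RPKM in stalk for Dapl1. The part of these cells in the results below was not tested. In bulk samples, fewer cells of a type and less RNA per cell cannot be told apart.

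The receptor genes were divided between the compartments. Fgfr4, Fgfrl1 and Fgfr1 were higher in tip, and Fgfr2 and Fgfr3 were lower in tip than in stalk. Among the ligand genes, Fgf9 was higher in tip and Fgf1 lower, whereas Fgf7, Fgf8 and Fgf20 were under 0.3 RPKM in every library. The test was limma on log2(RPKM + 1) in the 12532 genes averaging 1 RPKM or more over the 6 libraries, with p-values adjusted over all of them and a threshold of 0.05. Of the 10 members, 7 entered this test, and each of these averaged 1 RPKM or more in both groups. All 7 passed it, 4 with the higher level in tip and 3 with the higher level in stalk. Over all tested genes, 48.6% passed, 26.1% with the higher level in tip and 22.5% with the higher level in stalk. The change was 1 log2 unit or more for 4 of the 7, against 17.1% of all tested genes. In all 7 the libraries of the groups did not overlap, as in 57.8% of all tested genes.

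**Figure D1:**
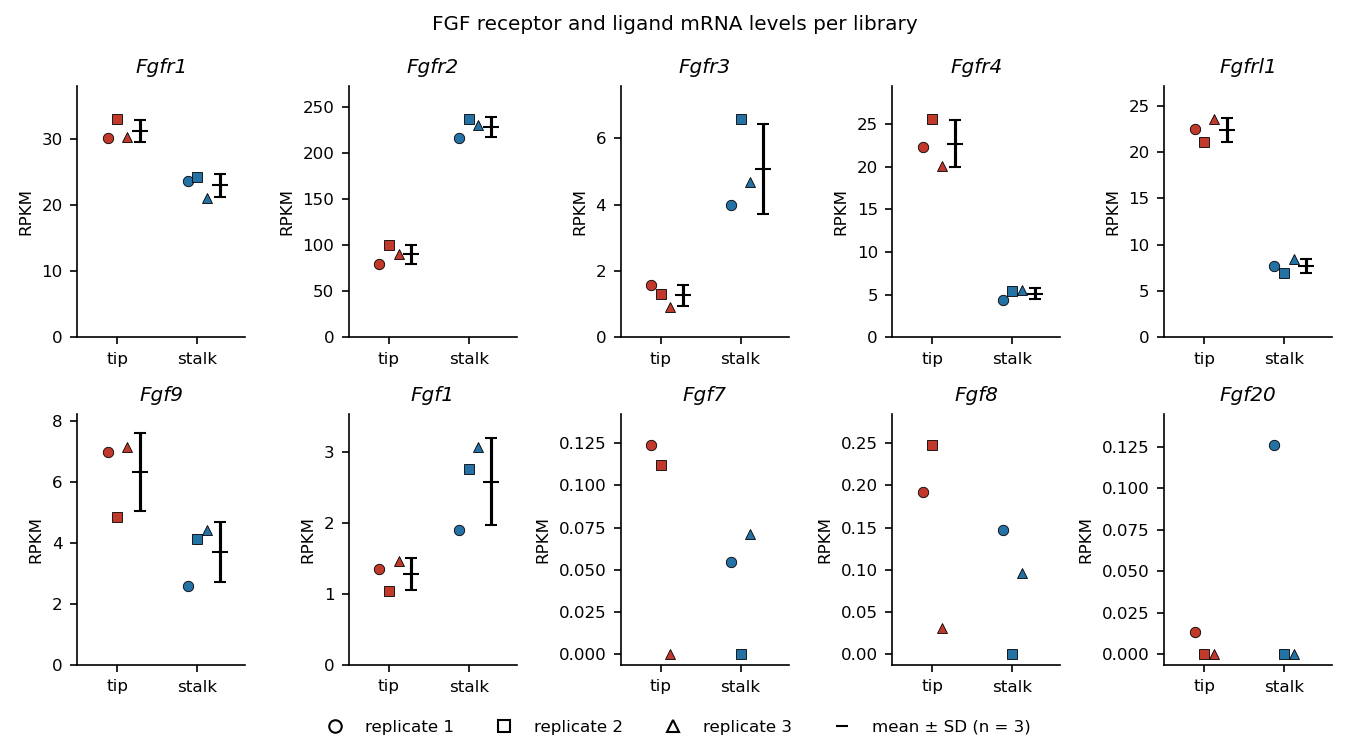
Level of each of the 10 genes (RPKM, vertical axis, a separate scale for each gene) in the 3 tip libraries (red, left) and the 3 stalk libraries (blue, right), with the mean ± SD beside the points of tested genes. Fgfr4, Fgfrl1, Fgfr1 and Fgf9 were higher in every tip library than in any stalk library, and Fgfr2, Fgfr3 and Fgf1 were lower.

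Fgfr4 and Fgfrl1 rose together in tip, and the 250 bases before their RefSeq start sites (assembly GRCm38.p6, the mm10 sequence) are shown beside those of Fgfr3, which went the other way. The RefSeq table held 6 of the 10 members. Fgfr2 is not shown because its RefSeq start lay 545 bases from the nearest GENCODE transcript start, against 178 bases for Fgfr4, 1 base for Fgfrl1 and 0 bases for Fgfr3. The annotated GENCODE gene began at 55152640 for Fgfr4, 108692382 for Fgfrl1 and 33721674 for Fgfr3. For all of them this lay upstream of the RefSeq start. The Fgfr4 and Fgfr3 windows thus overlap the annotated gene, and the Fgfrl1 window lies within it. The windows were searched on both strands for GGAAGT, a short sequence that many ETS factors bind, and capitals mark a match.
Fgfr4, chr13:55152568-55152817, plus strand: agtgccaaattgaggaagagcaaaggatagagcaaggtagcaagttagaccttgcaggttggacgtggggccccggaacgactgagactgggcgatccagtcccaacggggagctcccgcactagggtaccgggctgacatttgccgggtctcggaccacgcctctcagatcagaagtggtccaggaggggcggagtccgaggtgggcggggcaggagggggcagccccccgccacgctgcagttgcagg
Fgfrl1, chr5:108693979-108694228, plus strand: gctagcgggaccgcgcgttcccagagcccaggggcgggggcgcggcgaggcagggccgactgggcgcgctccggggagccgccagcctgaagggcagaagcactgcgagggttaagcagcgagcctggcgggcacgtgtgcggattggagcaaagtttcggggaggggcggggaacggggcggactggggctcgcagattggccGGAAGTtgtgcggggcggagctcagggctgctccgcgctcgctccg
Fgfr3, chr5:33721474-33721723, plus strand: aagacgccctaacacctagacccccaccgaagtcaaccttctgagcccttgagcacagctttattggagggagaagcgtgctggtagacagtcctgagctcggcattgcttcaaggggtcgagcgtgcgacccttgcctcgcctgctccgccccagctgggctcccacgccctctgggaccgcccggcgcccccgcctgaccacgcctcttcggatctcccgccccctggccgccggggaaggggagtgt
The Fgfrl1 window held 1 match, which began 46 bases before the start, and the windows of Fgfr4 and Fgfr3 held 0. Among all 32851 promoter windows of this length, 19.7% held the motif. All 3 windows held more CpG than the median window, with 15 CpG dinucleotides for Fgfr4, 30 for Fgfrl1 and 19 for Fgfr3, against a median of 6 over all windows. RefSeq gives Fgfr3 another start downstream, whose window is not shown and held 24 CpG dinucleotides and 0 matches. The windows of Fgf9, Fgf7 and Fgfr2, also not shown, held 0 matches and 11, 6 and 2 CpG dinucleotides. The match is a description of letters, and no factor binding was measured.

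Fgfr2 (chromosome 7, 130162451 to 133123350, minus strand, mm10, GENCODE M21, a span that 1 of its 27 transcripts reaches) was the most abundant member in all 6 libraries. Its protein is the ureteric receptor for FGF7 and FGF10 in one of its splice forms. It stood at 79.9, 99.9 and 90.2 RPKM in tip replicates 1 to 3, against 216, 238 and 231 RPKM in stalk replicates 1 to 3. Every stalk library lay more than 100 RPKM above every tip library. The means were 90.0 ± 9.99 RPKM in tip, against 228 ± 10.9 RPKM in stalk (SD, n = 3 each), a level 2.54-fold higher in stalk. The log2 fold change was -1.34 (SE 0.11, limma adjusted p = 3.17e-05). Only 10.6% of all tested genes had a larger absolute change.

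Fgfr1 (chromosome 8, 25513654 to 25575718, plus strand), whose product is the main FGF receptor of many mesenchymal cells, was the member with the next highest level. It stood at 30.2, 33.1 and 30.3 RPKM in tip, against 23.7, 24.3 and 21.1 RPKM in stalk. The groups did not overlap, but the shift was small. The means were 31.2 ± 1.66 RPKM in tip, against 23.0 ± 1.69 RPKM in stalk (SD, n = 3 each), a ratio of 1.36. The log2 fold change was 0.42 (SE 0.10, limma adjusted p = 0.00807), and 46.8% of all tested genes had a larger absolute change.

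Fgfr4 (chromosome 13, 55152640 to 55168759, plus strand), best known as the receptor for the endocrine ligand FGF15 in mouse liver, had the largest fitted log2 fold change of the members. Its level was 22.3, 25.6 and 20.1 RPKM in tip, against 4.40, 5.43 and 5.54 RPKM in stalk. The lowest tip library was thus well above the highest stalk library. The means were 22.7 ± 2.76 RPKM in tip, against 5.12 ± 0.630 RPKM in stalk (SD, n = 3 each), a ratio of 4.43. The log2 fold change was 1.95 (SE 0.13, limma adjusted p = 1.91e-05), exceeded in size by 4.17% of all tested genes. The beta-Klotho gene Klb, whose product is the co-receptor that FGFR4 uses in liver, was at 0.116 RPKM or less in all 6 libraries.

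Fgfrl1 (chromosome 5, 108692382 to 108706924, plus strand) is the receptor gene without a kinase. It stood at 22.5, 21.0 and 23.6 RPKM in tip, against 7.69, 6.90 and 8.48 RPKM in stalk. Replicates within each group lay close together. The means were 22.4 ± 1.28 RPKM in tip, against 7.69 ± 0.791 RPKM in stalk (SD, n = 3 each), a ratio of 2.91. The log2 fold change was 1.43 (SE 0.11, limma adjusted p = 3.34e-05).

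Fgfr3 (chromosome 5, 33721674 to 33737068, plus strand), known for restraining bone growth, was the least abundant receptor gene in tip. Its level was 1.57, 1.29 and 0.924 RPKM in tip, against 3.98, 6.59 and 4.68 RPKM in stalk. The stalk libraries were all higher and also more spread. The means were 1.26 ± 0.324 RPKM in tip, against 5.08 ± 1.35 RPKM in stalk (SD, n = 3 each), a level 4.03-fold higher in stalk. The log2 fold change was -1.41 (SE 0.20, limma adjusted p = 0.000618), on a scale whose pseudocount of 1 understates the change of a gene this low. Endothelial markers, given above, were higher in the same stalk libraries, and their part in the Fgfr3 difference was not tested.

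Since RPKM is scaled to length, the 4 receptor genes with a kinase could be set against each other within a library. Summed over Fgfr1 to Fgfr4, the level was 134, 160 and 142 RPKM in tip, against 248, 274 and 262 RPKM in stalk. Fgfr2 made up 59.6%, 62.5% and 63.7% of this sum in tip and 87.1%, 86.8% and 88.1% in stalk. The mean share of Fgfr2 was 61.9% ± 2.09 in tip and 87.3% ± 0.680 in stalk (SD, n = 3 each). The difference of -25.4 percentage points, tip minus stalk, had an exact two-sided permutation p of 0.1, the smallest that 3 against 3 libraries allow.

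The remainder of the sum was divided differently as well. Fgfr1 averaged 21.5% ± 0.925 in tip and 8.81% ± 0.750 in stalk, and Fgfr4 averaged 15.6% ± 1.25 in tip and 1.96% ± 0.172 in stalk (SD, n = 3 each). Fgfr3 averaged 0.878% ± 0.267 in tip and 1.93% ± 0.422 in stalk (SD, n = 3 each). Without Fgfr2, the other 3 kinase receptor genes summed to 54.0, 60.0 and 51.3 RPKM in tip, against 32.1, 36.3 and 31.3 RPKM in stalk. The larger total in stalk was thus carried by Fgfr2, while the other receptors summed to less there. In tip there were 3.58 to 4.48 RPKM of Fgfr2 for each RPKM of Fgfr4, against 41.7 to 49.2 in stalk. For each RPKM of the kinase-less Fgfrl1 there were 3.55 to 4.75 RPKM of Fgfr2 in tip and 27.2 to 34.4 in stalk.

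**Figure D2:**
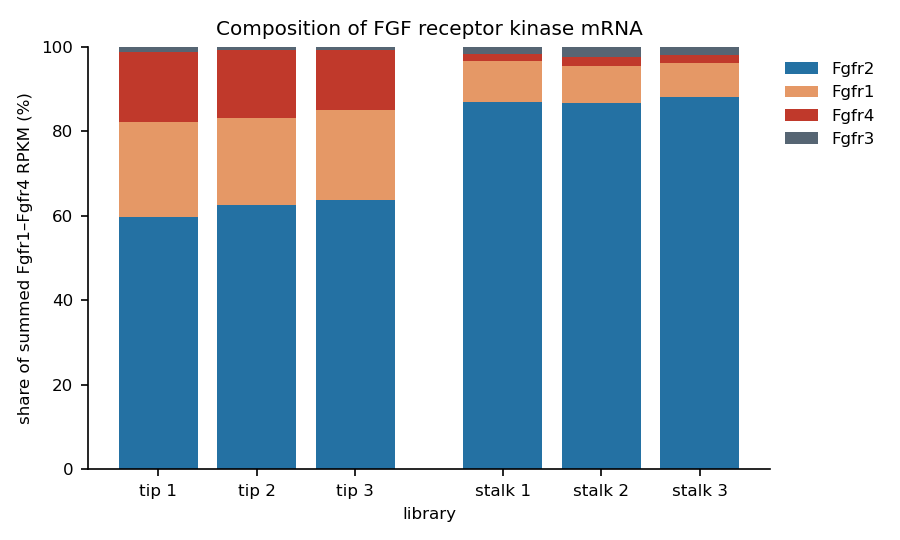
Share of each receptor gene in the summed RPKM of Fgfr1 to Fgfr4 (percent, vertical axis) in each tip library (left) and each stalk library (right). Fgfr2 takes 59.6% to 63.7% of the sum in tip and 86.8% to 88.1% in stalk, and Fgfr4 takes 14.2% to 16.6% in tip and 1.77% to 2.11% in stalk.

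The order of levels differed in its lower part. Fgfr2 came before Fgfr1 in all 6 libraries, with no overlap. In tip, Fgfrl1 and Fgfr4 followed at overlapping levels, then Fgf9, and then Fgfr3 and Fgf1, which also overlapped. In stalk, Fgfrl1 came next and was clear of Fgfr4, and the levels of Fgfr4, Fgfr3 and Fgf9 overlapped in part (4.40 to 5.54, 3.98 to 6.59 and 2.59 to 4.42 RPKM). Fgf7, Fgf8 and Fgf20 took the last 3 places in every library.

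The rows listed for a symbol carry no transcript identifier and are treated here as isoforms, between which the authors' quantification may divide reads, so splice forms such as the IIIb and IIIc forms of the receptors could not be named. Fgfr2 had 26 rows with values, of which 10 had a mean of at least 1 RPKM. Its leading row stood at 28.1, 32.8 and 27.9 RPKM in tip, against 71.7, 70.7 and 77.1 RPKM in stalk, which was 32.9% of the Fgfr2 total in tip and 32.0% in stalk. In 7 of the 10 rows every stalk library was above every tip library, and in 1 row every tip library was above every stalk library. Over all 20279 rows of the table with such a mean, 20.4% had stalk above tip and 25.0% had tip above stalk. The 10 rows are parts of the Fgfr2 sum, so they are no independent evidence for its call. The row that ran the other way was low, at 1.55 ± 0.397 RPKM in tip, against 0.705 ± 0.408 RPKM in stalk (SD, n = 3 each). The 6 most abundant rows of Fgfr2 were all among those higher in stalk, and their means were 1.86-fold to 3.24-fold those in tip.

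**Figure D3:**
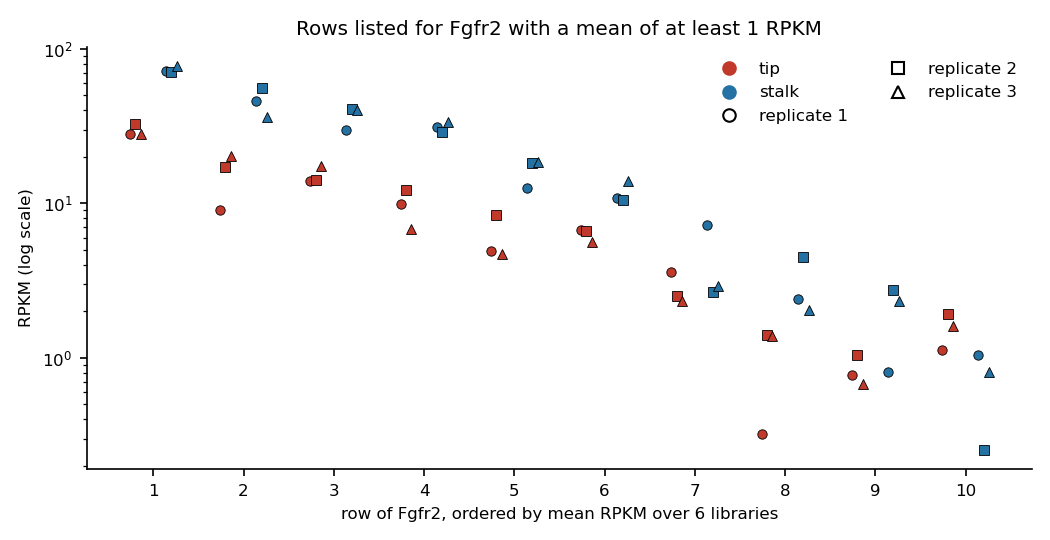
RPKM (log scale, vertical axis) of the 10 rows of Fgfr2 with a mean of at least 1 RPKM, ordered by their mean, in tip (red, left of each pair) and stalk (blue, right of each pair), with a symbol for each replicate. The 6 leading rows are lower in every tip library than in any stalk library, and the 10th row runs the other way.

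Rows of the other receptors followed the sum in part. Fgfr1 had 15 rows, of which 5 had a mean of at least 1 RPKM. Of these, 3 were higher in every tip library, and 2 overlapped between groups with the higher mean in stalk. The leading row of Fgfr1, at 19.1 ± 2.48 RPKM in tip, against 13.7 ± 0.952 RPKM in stalk (SD, n = 3 each), held 61.3% of the Fgfr1 total in tip and 59.6% in stalk. Another row of Fgfr1 stood at 2.99, 3.78 and 3.48 RPKM in tip, against 1.46 RPKM in stalk replicate 1, but was under 0.01 RPKM in stalk replicates 2 and 3, where a further row was at 4.80 and 1.03 RPKM. Whether the division of reads among rows plays a part in this was not tested. Fgfr4 and Fgfrl1 had nearly all of their signal in 1 row each, 92.9% and 95.5% of the total in tip. None of the 12 Fgfr3 rows had a mean of 1 RPKM, so that the Fgfr3 difference was seen in the sum and not in a row of that level.

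Among the ligands, Fgf9 (chromosome 14, 58070547 to 58112720, plus strand) was the most abundant. In the mouse kidney it is made by ureteric epithelium and acts on nephron progenitors. It stood at 6.99, 4.85 and 7.18 RPKM in tip, against 2.59, 4.13 and 4.42 RPKM in stalk. The groups did not overlap, but tip replicate 2 lay just above stalk replicate 3. The means were 6.34 ± 1.29 RPKM in tip, against 3.71 ± 0.981 RPKM in stalk (SD, n = 3 each), a ratio of 1.71, and the log2 fold change was 0.65 (SE 0.21, limma adjusted p = 0.0306). The call was lost without tip replicate 1 (adjusted p = 0.102), without tip replicate 3 (adjusted p = 0.104) and without stalk replicate 1 (adjusted p = 0.0742). The adjusted p ranged from 0.0122 to 0.104 over all alternatives. The leading Fgf9 row, with 75.3% of the total in tip and 57.1% in stalk, was at 4.78 ± 1.25 RPKM in tip, against 2.12 ± 0.647 RPKM in stalk (SD, n = 3 each). The next row overlapped between groups, at 1.30 ± 0.187 and 1.11 ± 0.276 RPKM in tip and stalk (SD, n = 3 each).

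Fgf1 (chromosome 18, 38838673 to 38929472, minus strand) encodes a ligand that can bind all of the FGF receptors. It stood at 1.35, 1.04 and 1.47 RPKM in tip, against 1.90, 2.77 and 3.08 RPKM in stalk. All stalk libraries were higher, by a small amount. The means were 1.29 ± 0.222 RPKM in tip, against 2.59 ± 0.613 RPKM in stalk (SD, n = 3 each), a level 2.01-fold higher in stalk, and the log2 fold change was -0.64 (SE 0.18, limma adjusted p = 0.0199). The most abundant row did not carry this difference. It was at 1.11 ± 0.251 RPKM in tip, against 1.22 ± 0.259 RPKM in stalk (SD, n = 3 each), and with this row in place of the sum the log2 fold change was -0.07 (limma adjusted p = 0.795). The call was also lost without tip replicate 1 (adjusted p = 0.0514), tip replicate 2 (adjusted p = 0.0617), stalk replicate 2 (adjusted p = 0.0537) or stalk replicate 3 (adjusted p = 0.0718).

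The other 3 ligand genes of the set were near 0 in both compartments and did not enter the test. Fgf7, a ligand of stromal cells that acts on the ureteric FGFR2, was at 0.124 and 0.112 RPKM in tip replicates 1 and 2 and listed at 0 in tip replicate 3. In stalk it was at 0.0545 and 0.0712 RPKM in replicates 1 and 3 and listed at 0 in replicate 2. Fgf8, whose product is made by early nephrons, was at 0.192, 0.248 and 0.0313 RPKM in tip, and at 0.148 and 0.0969 RPKM in stalk replicates 1 and 3, with a listed 0 in stalk replicate 2. Fgf20, a ligand of nephron progenitors, was at 0.0137 RPKM in tip replicate 1 and 0.126 RPKM in stalk replicate 1, and at or next to 0 in the other 4 libraries. No fold change is given for these genes.

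The rest of the FGF family was looked up from a list of all 22 mouse FGF genes. Of the 17 that are not members, 6 had no value, 8 were under 1 RPKM in every library and 3 were tested. Fgf12 and Fgf11 encode FGF homologous factors, which stay inside the cell and are known for binding sodium channels in neurons. Fgf12 was at 4.26, 4.96 and 4.81 RPKM in tip, against 0.471, 0.479 and 0.770 RPKM in stalk, and the log2 fold change was 1.85 (SE 0.16, limma adjusted p = 4.49e-05). Fgf11 ran the other way, at 0.425, 1.44 and 1.52 RPKM in tip, against 6.27, 7.93 and 6.67 RPKM in stalk (log2 fold change -1.94, SE 0.23, limma adjusted p = 0.000268). Fgf18, a secreted ligand known from bone and lung, was at 2.82, 2.53 and 1.91 RPKM in tip, against 0.0938, 0.0360 and 0.718 RPKM in stalk (log2 fold change 1.44, SE 0.24, limma adjusted p = 0.00133). The stalk means of Fgf12 and Fgf18 were under 1 RPKM, so both entered the test through their tip level. Fgf10, the mesenchymal ligand of ureteric FGFR2, was at 0.123 RPKM or less in every library.

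Beyond the members, 62 further genes of the pathway, including these FGF genes, were taken from 5 lists. Of these, 55 had values and 43 were tested, with 15 higher in tip, 7 higher in stalk and 21 not called. The shares over all tested genes were 26.1% for tip and 22.5% for stalk. The median log2 fold change of the 43 was 0.14, against 0.05 over all tested genes. Of the 43 tested genes, 6 had a mean under 1 RPKM in 1 of the groups and entered the test through the other. 

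Few of the adaptors that act next to the receptors were called. Of 12 tested, 1 was higher in tip, 1 higher in stalk and 10 were not called, and the median log2 fold change was -0.01. Over all tested genes, 48.6% were called. Frs2, the docking protein through which FGF receptors signal, was at 8.07, 8.55 and 8.49 RPKM in tip, against 8.92, 8.57 and 10.2 RPKM in stalk (log2 fold change -0.13, SE 0.12, limma adjusted p = 0.399), a gene named after its values were seen. The docking protein gene Gab1 was lower in tip (10.4 ± 0.399 RPKM in tip, against 14.8 ± 1.42 RPKM in stalk, SD, n = 3 each, log2 fold change -0.47, limma adjusted p = 0.00846). The phospholipase gene Plcg1 was higher in tip by 0.40 (limma adjusted p = 0.0445), a call lost in 10 of 15 alternatives.

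In the RAS to ERK cascade, 10 of 11 genes were tested, with 1 higher in tip, 3 higher in stalk and 6 not called, and a median of 0.01. The share of calls in the cascade was not above the 48.6% of all tested genes, of which 26.1% favoured tip and 22.5% favoured stalk. The ERK1 gene Mapk3 was at 32.1 ± 2.50 RPKM in tip, against 44.7 ± 3.07 RPKM in stalk (SD, n = 3 each, log2 fold change -0.47, limma adjusted p = 0.00535), and the kinase gene Araf had a log2 fold change of -0.42 (limma adjusted p = 0.00595). The MEK1 gene Map2k1 was also called (-0.36, limma adjusted p = 0.0495), but not in 11 of 15 alternatives.

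Co-receptors and carriers of FGF signalling had 6 of 8 genes tested, with 1 higher in tip, 2 higher in stalk and 3 not called (median -0.49). This share of calls is near the 48.6% of all tested genes. The FLRT proteins are membrane proteins that can bind FGF receptors and modulate their signalling. Flrt1 was at 0.748, 0.709 and 1.12 RPKM in tip, against 4.24, 4.66 and 5.14 RPKM in stalk (log2 fold change -1.62, SE 0.16, limma adjusted p = 9.22e-05). Flrt3 was likewise lower in tip, where it averaged 0.907 ± 0.235 RPKM against 3.69 ± 0.561 RPKM in stalk (SD, n = 3 each, log2 fold change -1.30, limma adjusted p = 0.000395). Flrt2 was slightly higher in tip (7.53 ± 1.27 and 5.44 ± 0.179 RPKM in tip and stalk, SD, n = 3 each, log2 fold change 0.40, limma adjusted p = 0.0445), a call lost in 11 of 15 alternatives. The tip means of Flrt1 and Flrt3 were under 1 RPKM, so both entered the test through their stalk level. Fgfbp1, whose product releases FGFs from heparan sulfate, was not called, at 0.928, 3.43 and 1.76 RPKM in tip, against 8.85, 2.58 and 3.67 RPKM in stalk (limma adjusted p = 0.0927), and was named after its values were seen.

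The targets and feedback inhibitors of ERK signalling, which respond to Ret and other receptors as well as to FGF receptors, had 12 of 14 genes tested. Of these, 10 were higher in tip, 0 were higher in stalk and 2 were not called, with a median log2 fold change of 1.96, against 26.1% of all tested genes higher in tip and a median of 0.05. The largest were Etv4 at 182 to 260 RPKM in tip, against 1.46 to 11.0 RPKM in stalk, and Etv5 at 71.5 to 121 RPKM in tip, against 1.26 to 5.11 RPKM in stalk, both ETS factor genes. They were followed by the cyclin gene Ccnd1 (log2 fold change 2.81) and the Sprouty gene Spry4 (log2 fold change 2.67). Of the 10 higher in tip, 2 averaged under 1 RPKM in stalk and entered the test through their tip level, Spry4 among them. The immediate early gene Egr1 (log2 fold change -0.24, limma adjusted p = 0.546) and Fosl1 (log2 fold change -1.50, limma adjusted p = 0.0839) were not called. Each of the 10 changed by more than 1 log2 unit, as did 4 of the 5 receptor genes, which went both ways, and 0 of the 22 adaptors and cascade genes tested, against 17.1% of all tested genes. The list overlaps with genes already known from these libraries to be high in tip and is given only as the setting of the receptors.

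**Figure D4:**
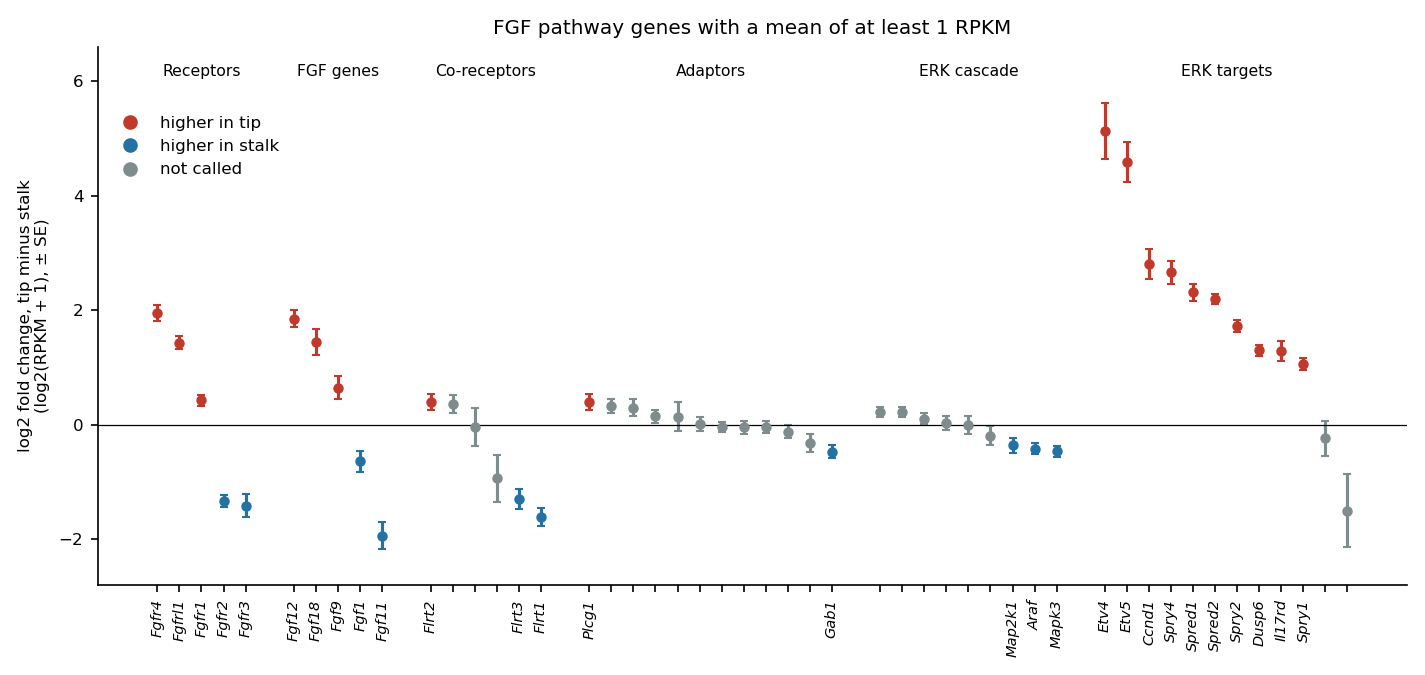
Log2 fold change, tip minus stalk, on the log2(RPKM + 1) scale (vertical axis, bars ± SE of the limma fit) of FGF pathway genes averaging 1 RPKM or more, grouped by role, with the names of called genes. Receptor genes run from 1.95 for Fgfr4 to -1.41 for Fgfr3, the adaptors and ERK cascade genes drawn lie between -0.47 and 0.40, and 10 of 12 ERK target genes are higher in tip.

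Genes with the pattern most like that of a member were sought among 9155 genes averaging 5 RPKM or more, by the root mean square difference between profiles of log2(RPKM + 1) centred on their own mean over the 6 libraries. The nearest to Fgfr2 included Arhgef38 (0.05), which was at 5.43 ± 0.723 RPKM in tip, against 15.9 ± 0.576 RPKM in stalk (SD, n = 3 each) and Baiap2l1 (0.06). For Fgfrl1 they were the histone methyltransferase gene Ezh2 (0.05), at 53.4 ± 3.65 RPKM in tip, against 18.0 ± 1.47 RPKM in stalk (SD, n = 3 each), the replication clamp gene Pcna (0.06) and Rai14 (0.06). For Fgfr1 they were Fxr1 (0.04), Calu (0.05) and the integrin gene Itga5 (0.05). These likenesses rest on 6 libraries in which 48.6% of genes differed between the groups, and they describe profiles only.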

How the data were processed

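Messenger RNA of ureteric tip and stalk cells was sequenced in 3 libraries each, with RNA from a Qiagen RNeasy micro kit and a Kapa stranded mRNA library kit, per the labels' protocols. The deposited table holds RPKM computed by the authors. Of tools, bcl2fastq 2.17, TopHat2 and Partek are named in the submitters' processing notes, with build mm10. Annotation, strand use and quantification settings are not given in the sources used here. Of 93615 rows, 24545 held a question mark in all columns and were dropped, and the other 69070 were summed over 21456 symbols. Such sums may share reads between overlapping genes. Exact zeros may be failed estimates.

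Genes averaging 1 RPKM or more were tested with limma 3.58.1 (R 4.3.3) on log2(RPKM + 1), group only, with a variance trend, two-sided, Benjamini-Hochberg over all genes, threshold 0.05. Fold changes are tip minus stalk.  Alternatives changed the pseudocount, the filter, the scaling, the rows, the variance trend and the libraries, or added a replicate block. Coordinates are from GENCODE M21 and promoters from RefSeq.

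The members and lists were chosen with earlier results of these data known. Named genes were all members, every FGF gene with a mean of at least 1 RPKM, up to 4 called genes a direction from each pathway list (the 2 most abundant where fewer than 2 were called), Wnt11, Hoxb7 and Ret as checks of the sort, and the 3 nearest patterns of the 3 members with the highest mean over all libraries. Epcam, Cdh1, Cdh16, Gata3, Foxd1, Six2, Cited1, Crym, Osr1, Dapl1, Klb, Fgf10, Frs2, Fgfbp1, Egr1 and Fosl1 were added after their values were seen. So were Wnt9b, Cd68 and Laptm5. A gene of the ERK cascade and a gene among the nearest patterns are not reported here. Hoxb7 was not called (log2 fold change 0.48, limma adjusted p = 0.150). Marker lists gave, besides those in the report, summed levels in tip and stalk of 1323 to 1448 and 1916 to 2149 RPKM for ureteric epithelium, 1028 to 1811 and 62.8 to 143 RPKM for ureteric tip, 196 to 256 and 147 to 194 RPKM for early nephron, 5.03 to 13.8 and 7.08 to 11.7 RPKM for podocyte, 3.20 to 6.39 and 2.41 to 16.7 RPKM for proximal tubule, 12.7 to 15.3 and 12.2 to 19.5 RPKM for immune cells, and 12.4 to 72.4 and 8.86 to 83.8 RPKM for erythroid cells. The early nephron sum hides both directions, with 3 of its 8 genes higher in tip, 3 higher in stalk and 2 not called. It includes the ERK target Ccnd1, at 66.3 to 91.6 RPKM in tip, against 6.53 to 15.4 RPKM in stalk. Of the 7 ureteric tip genes, Wnt11 among them, 6 were higher in tip. Wnt9b was higher in stalk (means of 10.4 RPKM in tip and 26.9 RPKM in stalk). Of 3 immune genes tested, 1 was not called. Cd68 was higher in tip (means of 9.46 and 5.50 RPKM in tip and stalk). Laptm5 was higher in stalk (0.101 and 5.03 RPKM) and entered the test through its stalk level.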

Additional observations from a re-analysis of the deposited data

How the results depend on the processing

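Fgfr1, Fgfr2, Fgfr4 and Fgfrl1 kept their direction and call in 15 of 15 alternatives, and Fgfr3 in the 13 in which it was tested, while Fgf9 and Fgf1 each lost the call in 5. No member changed direction in any alternative run. The count of members higher in stalk, 3 in all, was 1 with a minimum mean of 5 RPKM and 1 with the highest row of each symbol in place of the sum, since fewer members were tested under both and Fgf1 lost its call with the highest row. Pathway genes higher in stalk numbered 4 with a minimum mean of 5 RPKM, against 7. With a library left out, 3 to 4 members were higher in tip and 2 to 3 higher in stalk, and the difference in the Fgfr2 share was -26.2 to -24.2 percentage points, against -35.8 with the highest row of each symbol. Calls over all genes ranged from 4767 to 5853, against 6089. Scaling each library by its median ratio moved log2 fold changes by -0.05 in the median and changed no call of a member, while over all genes 3009 were then higher in tip and 3143 in stalk, against 3274 and 2815. Same-numbered tip and stalk libraries did not deviate together (correlations of -0.30, -0.33 and 0.09 for numbers 1 to 3), and each tip library correlated best with a stalk library of another number (0.33 to 0.56). With the replicate block 5096 genes were called and Fgf9 missed the threshold (adjusted p = 0.0533), and without a filter on low values it did so too (adjusted p = 0.0888). Depth was unknown, so levels near 0 cannot be told from absence.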
